A study of Monodelphis domestica and Mus musculus and Sus scrofa with 73 samples.

Results

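The embryonic forelimb of Carollia perspicillata, a fruit-eating bat, was compared between stages 15 and 14, across all genes of the bat transcriptome with enough reads. A gene entered the comparison when its RSEM expected count, rounded to a whole number, was at least 10 in 2 or more of 5 forelimb libraries, and 15015 of the 27026 genes in each table (55.6%) met this rule. The libraries were the 2 of stage 15, which the labels call late-stage (LS), and all 3 of stage 14, of which 2 are called early-stage (ES) and the third carries only the stage number. The paper, which describes bat forelimbs of stages 14 and 15 only, reports that its bat embryos were collected in the field in Trinidad. No treatment or genetic change is given for any library. The labels do not give an embryo's age, the number of limbs in a library, or whether libraries came from separate embryos. If they did not, the p-values below measure only the spread between these libraries, which may be technical. The other bat libraries, used beside these 5, were 3 forelimb libraries of stage 13 and 8 hind limb libraries, with 3 each at stages 13 and 14 and 2 at stage 15.

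The vertebrate limb first grows out as a bud of mesenchyme covered by ectoderm, whose distal ridge keeps the mesenchyme growing. The bud then flattens into a hand or foot plate, the paddle, in which cartilage condenses along the digit rays while muscle precursors, vessels and nerves enter. In bats the forelimb plate goes on to form the wing, with long digits and a membrane between them, and the hind limb forms a short foot. In this study stage 14 stands for the bud and stage 15 for the paddle of the bat, so the comparison asks which genes change in amount as the forelimb passes from one to the other.

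The identifiers of the bat genes are numbers of assembled components and the tables do not pair them with gene names. None of the mouse or opossum name tables at hand uses such identifiers, so 0 genes could be matched to a symbol, no marker of limb tissue could be checked, and genes are described by their values. At most 4 are given by identifier, and no sequence is printed. These are bulk libraries of whole limbs, so fewer cells of a type and less RNA per cell cannot be told apart in any of the changes below.

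The 5 forelimb libraries held between 16243535 and 32627904 expected counts, and 3 counts in a library correspond to between 0.0919 and 0.185 counts per 1000000 (CPM), a limit that covers counting error only. Between 17095 and 19085 genes had at least 1 count. The 3 stage 14 libraries were deeper than the 2 of stage 15, which held 18675055 and 16243535. Of the tested genes, 13312 reached a count of 10 in all 5 libraries. Only through stage 15 did 155 genes pass, with fewer than 10 counts in each stage 14 library, and 123 of them were called higher at stage 15. Only through stage 14 did 385 pass, of which 20 were called lower. Over all tested genes 8.46% were called higher and 4.34% lower. Being higher at the stage through which they passed was part of the condition, so neither count is a result about these genes. At the limit of the rule, 132 genes had a second highest count of exactly 10 and were kept, and 173 had one of 9 and were left out, with a median highest count of 13 in each case.

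The libraries fell apart by stage. Over the 500 genes that differed most in a pair of libraries, the root mean square difference was 1.83, 1.88 and 2.11 on the log2 scale for the pairs of stage 14 and 2.55 for the stage 15 pair, and between stages it ranged from 3.19 to 3.66. A pair of the same stage differed more than 2-fold in 868 to 1217 genes, and a pair of different stages in 1912 to 2763 genes. All 6 pairs between stages lay above all 4 pairs within a stage. Stage 15 replicate 2 was the library farthest from each stage 14 library, and the third stage 14 library, despite its different label, lay 1.88 and 2.11 from the others of its stage.

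More genes rose than fell between stage 14 and stage 15, and the rises were larger. Of the 15015 genes, 1922 (12.8%) passed an adjusted p of 0.05 in edgeR's quasi-likelihood test with Benjamini-Hochberg adjustment. Of these, 1270 (8.46% of those tested) were higher at stage 15 and 652 (4.34%) were lower. The median change of the genes that rose was 2.60-fold (log2 fold change 1.38, quartiles 0.84 and 2.33), and that of the genes that fell was 1.60-fold (log2 fold change -0.68, quartiles -0.95 and -0.52). The rises stood at lower levels, where a change must be larger to pass the test. Within 4 groups of genes by level, described below, the medians of called rises and falls were closer in size. They were 2.60 and -2.35 on the log2 scale in the lowest group and 0.63 and -0.54 in the highest. The median over all tested genes was -0.01 on the log2 scale. Among the genes that rose, 437 changed between 2-fold and 4-fold, 220 between 4-fold and 8-fold, and 189 by 8-fold or more. Among those that fell, 503 of 652 changed less than 2-fold and 19 by 8-fold or more.

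The stages were apart in about as many genes in each direction. In 3571 genes both stage 15 libraries lay above all 3 stage 14 libraries, and in 3398 genes both lay below. These are 23.8% and 22.6% of the genes tested, against 12.8% called. All 1922 called genes were among those with no overlap between the stages, but they were chosen by a test on the same libraries. The called genes that rose took 4.08% to 4.36% of a library's counts at stage 14 and 7.86% and 7.94% at stage 15. Those that fell took 9.75%, 9.99% and 10.02% at stage 14 and 6.86% and 6.55% at stage 15. In both lists the libraries of a stage lay close together and the stages did not overlap.

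The count of called genes depended on which libraries were included. It was 502 without stage 15 replicate 2, 780 without stage 15 replicate 1 and 1250 without stage 14 replicate 1, and in each of these fits most calls were higher at stage 15 (421, 556 and 909 genes). Without a stage 15 replicate that stage is 1 library, which is then assumed to vary as the stage 14 libraries do, in the length and hind limb tests as well. Without the third stage 14 library, so that only libraries labelled ES and LS remained, 1550 genes passed, 1067 of them higher, and 1421 of the 1550 were among the 1922.

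**Figure D1:**
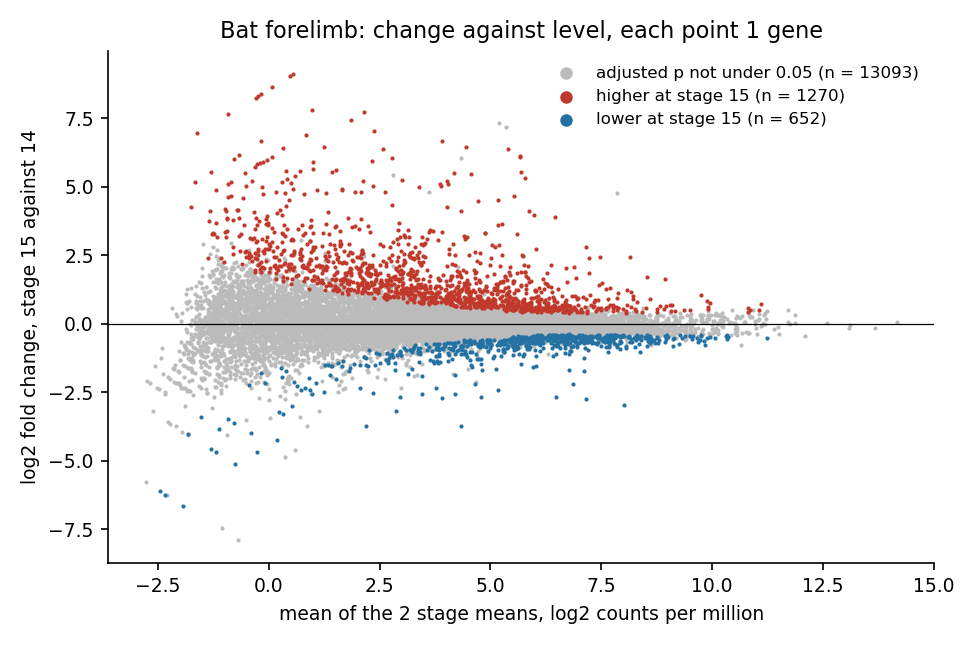
Change of each of the 15015 tested genes in the bat forelimb (vertical axis, log2 fold change of stage 15 against 14) against its level (horizontal axis, log2 of the mean CPM of both stages). The 1270 genes past the threshold that were higher at stage 15 (red) spread to large changes at low levels, and the 652 that were lower (blue) lie mostly below -0.5 at high levels.

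Genes that rose stood at lower levels than genes that fell. A count of at least 100 in every library was found for 677 of the genes that rose (53.3%) and for 564 of those that fell (86.5%). The median level over the 5 libraries was 11.2 CPM for genes that rose, 68.8 CPM for genes that fell and 20.7 CPM for all tested genes. The genes were divided by level into 4 groups of equal size. In the lowest group (median 1.20 CPM), 330 rose and 43 fell. In the second group 434 rose and 111 fell, and in the third 308 rose and 154 fell. In the highest group (median 115 CPM) the order turned, with 198 genes that rose and 344 that fell. These groups include the 155 genes that passed the count minimum only through stage 15, 123 of them called higher. They also include the 385 that passed only through stage 14, 20 of them called lower. Among all tested genes 8.46% were called higher and 4.34% lower. The groups were not recounted without these genes. With a count of 10 required in all 5 libraries, 1116 genes rose and 603 fell at all levels together. The order in the lowest and in the highest group was the same with RLE factors, total-count scaling, DESeq2 and counts thinned to matched depth, and in the highest group it was closest with total-count scaling, at 249 and 285. A change must be larger in a gene with few counts to pass the test, and the median change of called genes went from a log2 fold change of 2.60 in the lowest group to 0.63 in the highest among rises, and from -2.35 to -0.54 among falls.

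**Figure D2:**
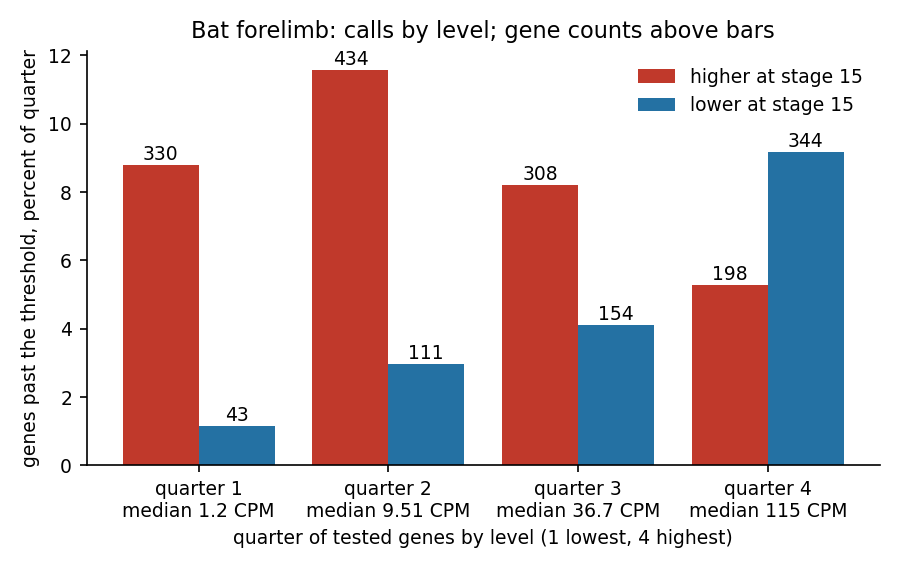
Share of tested genes past the threshold in each of the 4 groups of genes by level (bars from 0, percent of the group; red higher and blue lower at stage 15, gene counts above the bars). Rises outnumber falls in the lower 3 groups, with 330 against 43 in the lowest, and falls outnumber rises in the highest, with 344 against 198.

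Most of the 100 most abundant genes were shared by the stages. Of the 100 genes with the highest mean CPM at stage 14, 83 were also among the 100 highest at stage 15. Among the 100 highest by the mean of both stages, 5 rose and 6 fell, or 11%, beside 12.8% of all tested genes, and 98 changed less than 1.5-fold. Their log2 fold changes lay between -0.78 and 0.72. Among the 1000 highest, 56 rose and 131 fell, or 18.7%, which is above the share of all tested genes, and 911 changed less than 1.5-fold.

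Genes that fell were longer than genes that rose. A gene's length was taken as the mean over the 16 bat libraries of the length RSEM gives it, weighted by isoform abundance. Its median was 1966 bases for genes that rose, 3114 for genes that fell and 2075 for genes not called. Of genes of 3000 bases or more, 7.11% rose and 7.38% fell, and of genes between 300 and 1000 bases 8.17% rose and 1.76% fell. Long genes also had more counts, with a median of 55.0 CPM against 2.02 CPM. Within the highest group by level, where median levels were alike at 117 and 112 CPM, 10.7% of genes of 3000 bases or more and 7.34% of genes between 1000 and 3000 bases fell, and 4.22% and 6.8% rose. The median number of isoforms was 2 in each list, and a single isoform was assembled for 47.5% of genes that rose, 38.2% of genes that fell and 39.7% of genes not called. Which part of these differences goes with length and which with level was not tested further.

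Some components of the assembly, as numbered in the identifiers, were split into several genes, which can be pieces of 1 transcript or related genes. In 504 components 2 or more genes were tested, which gave 548 pairs of genes. Both members were called in 16 pairs, and all 16 changed in the same direction, with a median difference of 0.39 between their log2 fold changes. In 90 pairs only 1 member was called, and the other had the same sign in 61. Over all 548 pairs the sign was shared in 63.3%. Such genes can share reads, which could not be checked without the sequences. Their values are therefore uncertain, and they were not taken as independent of each other.

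The largest rise among called genes was in comp38070_c0, a gene of 471 bases with 1 isoform. It had 0 counts in all 3 stage 14 libraries, and 38 and 64 counts at stage 15 (2.00 and 3.88 CPM). The stage 15 level of comp38070_c0 was at least 80.4-fold higher than the level of 3 counts over the 3 stage 14 libraries. The gene met the count minimum only through stage 15, where it is high, so its call is a description and no p is given for it. At stage 13 comp38070_c0 had 0, 3 and 0 forelimb counts, so no forelimb library before stage 15 had more than 3. In the hind limb its counts were 6, 4 and 0 at stage 14 and 30 and 20 at stage 15, where it again met the minimum only through stage 15. Forelimb stages without overlap were a condition for naming this gene. Its hind limb stages, which had no part in naming it, did not overlap either, and this too is only a description. The share of all genes without overlap in hind limb counts is not given here.

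The largest fall was in comp83297_c0, of 459 to 460 bases with 2 isoforms. Its counts were 14, 9 and 21 at stage 14 and 0 in both stage 15 libraries. This is a level at least 6.20-fold lower at stage 15 than at stage 14, with 3 counts over both stage 15 libraries as the limit. It met the count minimum only through stage 14, where it is high, so no p is given for it either. Each stage 13 forelimb library held 8 counts of comp83297_c0, in totals that differed more than 2-fold. In the hind limb comp83297_c0 had 17, 15 and 11 counts at stage 14 and 5 and 1 at stage 15, where it also met the minimum only through stage 14 and was not called. The forelimb call was lost when either stage 15 library was left out.

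Among genes with at least 100 counts in each of the 5 libraries, the largest rise was in comp122102_c0, of 3607 bases with 1 isoform. It stood at 8.06, 5.95 and 5.42 CPM in the stage 14 libraries and at 97.5 and 124 CPM in those of stage 15. The mean of comp122102_c0 went from 6.48 ± 1.40 CPM (SD, n = 3) to 111 ± 18.8 CPM (SD, n = 2), and its rise was 17.1-fold (log2 fold change 4.09, standard error 0.20, adjusted p = 1.33e-05, edgeR). Scaled over all 16 libraries, comp122102_c0 was at 26.5, 10.7 and 13.5 CPM in the stage 13 forelimb, above all 3 stage 14 libraries (from 5.33 to 8.03 CPM on that scale), but stage 14 against 13 did not pass the test (log2 fold change -1.38, standard error 0.35, adjusted p = 0.0763, edgeR). The hind limb held 157, 16.04 and 74.1 CPM at stage 13, 16.2, 8.16 and 1.27 at stage 14 and 60.0 and 103 at stage 15. In either limb the mean of comp122102_c0 was lowest at stage 14, but hind limb stages 13 and 14 overlapped, and the hind limb values at stage 15 against 14 did not pass the test (log2 fold change 3.24, standard error 0.76, adjusted p = 0.0608, edgeR).

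The largest fall among genes with that many counts was in comp126894_c0, of 4477 bases with 1 isoform. It stood at 346, 418 and 621 CPM at stage 14 and at 64.1 and 54.2 CPM at stage 15. Its mean fell from 462 ± 142 CPM (SD, n = 3) to 59.2 ± 6.94 CPM (SD, n = 2), which is 7.80-fold (log2 fold change -2.96, standard error 0.25, adjusted p = 0.000239, edgeR). At stage 13 the forelimb libraries held 1168, 1096 and 1109 CPM of comp126894_c0 on the scale of all 16 libraries, so every stage lay below the one before without overlap. The fall from stage 13 to 14 also passed the test (log2 fold change -1.27, standard error 0.21, adjusted p = 0.0170, edgeR). In the hind limb comp126894_c0 went from 1120, 1126 and 1437 CPM at stage 13 through 906, 858 and 668 at stage 14 to 61.3 and 51.0 at stage 15. Its hind limb fall between stages 14 and 15 was 14.3-fold (log2 fold change -3.84, standard error 0.22, adjusted p = 0.000138, edgeR), and the difference from the forelimb change did not pass the interaction test (0.87 on the log2 scale, standard error 0.32, adjusted p = 0.945, edgeR).

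**Figure D3:**
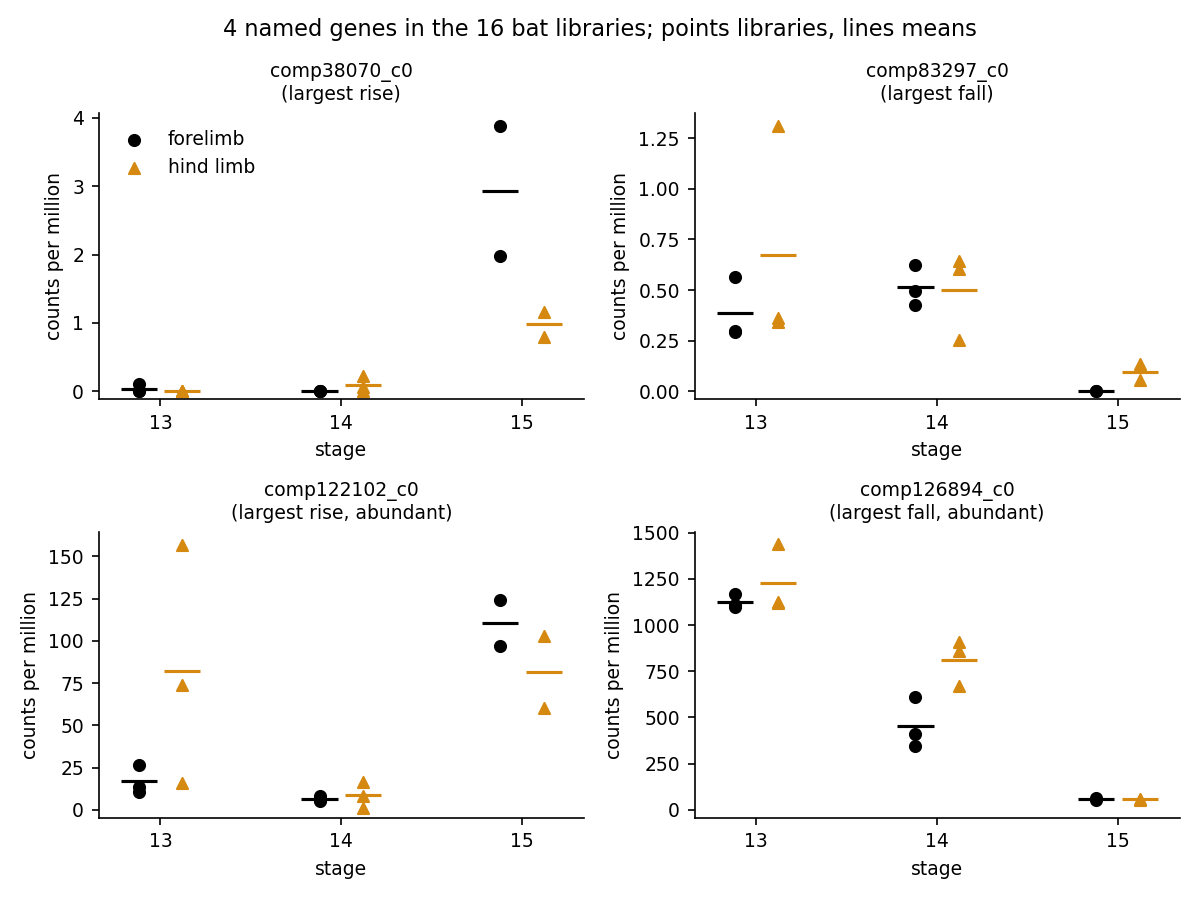
CPM, scaled over all 16 bat libraries, of the 4 named genes by stage (points are libraries, lines are stage means; black circles forelimb, orange triangles hind limb; linear axes from 0). At stage 15 the forelimb libraries of comp38070_c0 and comp122102_c0 lie above, and those of comp83297_c0 and comp126894_c0 below, every stage 14 forelimb library. This separation in the forelimb was a condition for naming a gene.

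The hind limb libraries, none of which entered the forelimb test, showed the same direction for nearly all forelimb calls. Of the 1231 genes that rose in the forelimb and were also tested in the hind limb, 1204 (97.8%) had a higher value at stage 15 than at stage 14 there, beside 49.1% of all 14829 genes tested in both limbs. Of the 650 that fell, 618 (95.1%) were lower in the hind limb, beside 50.9%. The median hind limb log2 fold change was 1.00 for genes that rose in the forelimb, where it was 1.34 for the same genes, and -0.45 for genes that fell, against -0.68. The forelimb values chose these genes and the hind limb values did not. All 5 hind limb libraries of these stages carry a stage number as label, and the stage 15 forelimb libraries carry LS. In the forelimb LS goes with stage 15 throughout. With only the forelimb libraries labelled ES and LS, 1550 genes passed, 1421 of them among the 1922. The part of the label set in the stage difference was not tested further. The labels do not say whether forelimb and hind limb libraries came from the same embryos.

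The hind limb fit called 761 of 15305 genes (4.97%), of which 572 (3.74%) were higher and 189 (1.23%) lower. It had 469 calls without stage 14 replicate 2, and 254 and 234 without stage 15 replicates 1 and 2. Higher in both limbs were 424 genes, which are 33.4% of the forelimb rises and 74.1% of the hind limb rises. Genes lower in both were 16.1% of the forelimb falls and 55.6% of the hind limb falls. By the size of the forelimb rise, the hind limb fit called 15.8% of the genes under 2-fold, 39.6% of those between 2-fold and 4-fold, 47.4% of those between 4-fold and 8-fold and 52.9% of those above. For falls these shares were 8.75%, 39.4%, 61.5% and 23.5%, the last over 17 genes, so they did not go up throughout.

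**Figure D4:**
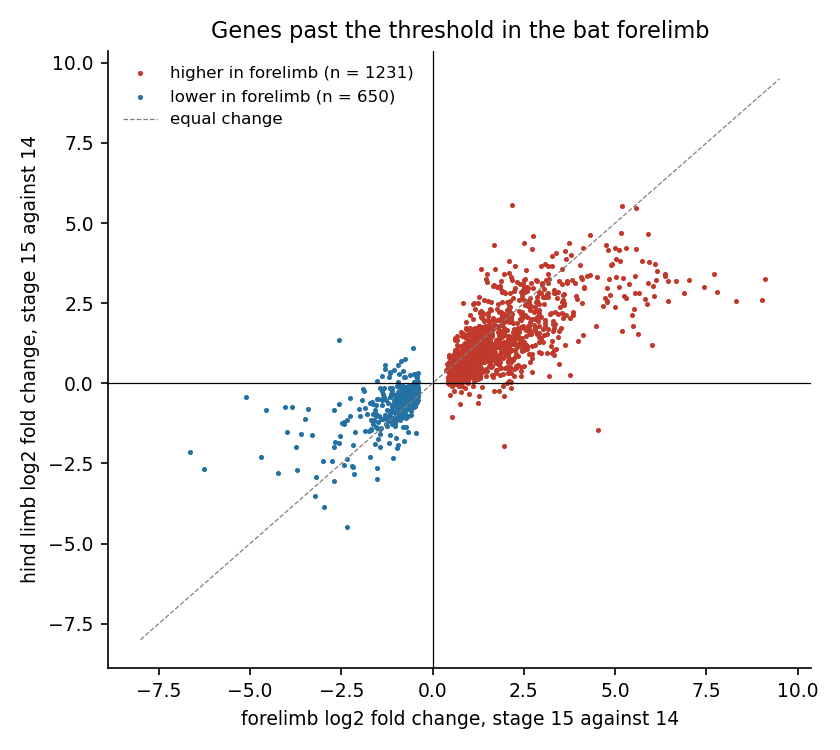
Hind limb log2 fold change of stage 15 against 14 (vertical axis) against that of the forelimb (horizontal axis) for the 1231 genes called higher (red) and the 650 called lower (blue) in the forelimb that were tested in both limbs (1 point a gene; the dashed line marks equal change). Of these, 1204 and 618 points lie on the side of the forelimb change.

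No gene passed the test of a different change in the limbs. The interaction of stage and limb over the 10 libraries of stages 14 and 15 gave 0 of 15783 genes (0%) at an adjusted p of 0.05 in edgeR's quasi-likelihood test, with 771 at an unadjusted p under 0.05, which is 4.89%, and a smallest adjusted p of 0.106. DESeq2 gave 54 genes. Without forelimb stage 15 replicate 1 edgeR gave 5 genes and without hind limb stage 14 replicate 3 it gave 26. The greater count of calls in the forelimb is thus no test of a difference from the hind limb.

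In 2 genes, chosen after their values were seen, the limbs were called in opposite directions. The first stood at 32.5, 32.4 and 31.1 CPM in the stage 14 forelimb and at 47.6 and 46.4 CPM at stage 15. In its hind limb libraries it went from 43.4, 29.2 and 33.0 CPM to 16.03 and 17.9 CPM. The forelimb rose by 0.54 on the log2 scale and the hind limb fell by 1.05, and neither limb's stages overlapped. The second gene fell by 0.53 in the forelimb, from 59.7, 50.7 and 54.5 CPM to 35.4 and 41.5 CPM, and rose by 1.103 in the hind limb, from 20.1, 19.3 and 27.8 CPM to 38.9 and 56.6 CPM. The adjusted p of the interaction in edgeR was 0.125 for the first and 0.196 for the second.

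The genes called between stages 14 and 15 were also looked up in the preceding interval, from stage 13 to 14. Both intervals use the stage 14 libraries, so their values are given side by side and not related to each other. Of the genes that rose at stage 15, 1088 were tested for stage 14 against 13, where 142 were higher at stage 14 (13.1%), 16 were lower (1.47%) and 930 did not pass, beside 2.2% higher and 0.827% lower among all 14630 genes tested. Their median log2 fold change was 0.33 in that interval. Of the genes that fell at stage 15, 650 were tested, of which 19 were higher at stage 14 (2.92%), 26 were lower (4%) and 605 did not pass, with a median of -0.20. The whole interval from stage 13 to 14 held 443 calls (3.03%). That count moved by over 1.5 times with each library left out: to 75, 111 and 139 without stage 14 replicates 1, 2 and 3, and to 141, 260 and 676 without stage 13 replicates 1, 2 and 3.

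The level of each list in single libraries shows the same order. Relative to the stage 14 forelimb mean, the median gene of those that rose stood 1.17 and 1.26 higher on the scale of log2(CPM + 0.5) in the stage 15 forelimb libraries. In the stage 13 forelimb libraries it stood 0.21, 0.18 and 0.34 lower (-0.21, -0.18 and -0.34). In the hind limb it lay between -0.35 and -0.19 at stage 13, between -0.12 and 0.11 at stage 14, and at 0.74 and 0.82 at stage 15. For genes that fell, the forelimb medians were between 0.13 and 0.26 at stage 13 and -0.62 and -0.68 at stage 15, and the hind limb medians were between 0.17 and 0.31, between -0.11 and 0.09, and -0.39 and -0.53 at stages 13, 14 and 15. In both lists every stage 15 library of either limb lay apart from all libraries of stages 13 and 14, while for genes not called all 16 medians lay between -0.02 and 0.04. The forelimb values of stages 14 and 15 chose the lists, and the 11 other libraries did not.

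A further readout was the length that RSEM gives a gene in each library, which is the mean over its isoforms weighted by their estimated abundance. A change of this length means that the estimated shares of longer and shorter assembled isoforms changed, whatever the gene's total. These shares were not checked in another way. It was tested with limma on the log2 scale for the 8466 genes with 2 or more isoforms and at least 10 counts in all 5 libraries. Lengths were stable in most genes, with a median absolute shift of 0.02 on the log2 scale, and 869 genes (10.3%) shifted by more than 10%. The adjusted p was under 0.05 for 10 genes (0.118%), of which 3 (0.0354%) were longer and 7 (0.0827%) shorter at stage 15, and 831 genes (9.82%) had an unadjusted p under 0.05.

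The 10 genes shifted by between 0.12 and 1.42 on the log2 scale, and the lengths of the stages did not overlap in any of them, though they were chosen by a test on the same libraries. Over all 8466 genes the forelimb stages did not overlap in 10.1% with longer and 16.8% with shorter lengths at stage 15. In the gene with the largest shift the length was 2441, 2257 and 2282 bases at stage 14 and 6411 and 6031 bases at stage 15, with 4 isoforms and at least 1832 counts in each library (log2 shift 1.42, standard error 0.05, adjusted p = 0.0358, limma). In the next, with 2 isoforms and at least 145 counts, it was 901, 904 and 901 bases and then 1590 and 1628 bases (log2 shift 0.83, standard error 0.01, adjusted p = 0.00515, limma). The largest shortening, in a gene with as few as 29 counts in a library, was from 1970, 2020 and 2034 bases to 1354 and 1377 bases (log2 shift -0.56, standard error 0.02, adjusted p = 0.0335, limma). The count of that gene rose between the stages (log2 fold change 4.48, adjusted p = 0.000136 from edgeR), as did that of the gene with the largest lengthening (1.01, adjusted p = 0.00239 from edgeR), and the counts of the other 8 did not pass the test.

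The hind limb libraries, which had no part in choosing these genes, shifted in the same direction in all 10, beside 62% of all 8466 genes. In 7 of them the hind limb stages did not overlap, beside 9.95% of all genes with longer and 12.2% with shorter lengths, and in 3 they overlapped. For the largest shift the hind limb mean went from 1761 to 3428 bases, and for the second from 967 to 1535 bases. These 10 calls rest on few libraries: without any 1 of the 3 stage 14 libraries 0 genes passed, and without stage 15 replicate 1 or 2, 41 and 20 passed. With a minimum of 50 counts 2 genes passed, and with the replicate number as a block 0 passed.

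**Figure D5:**
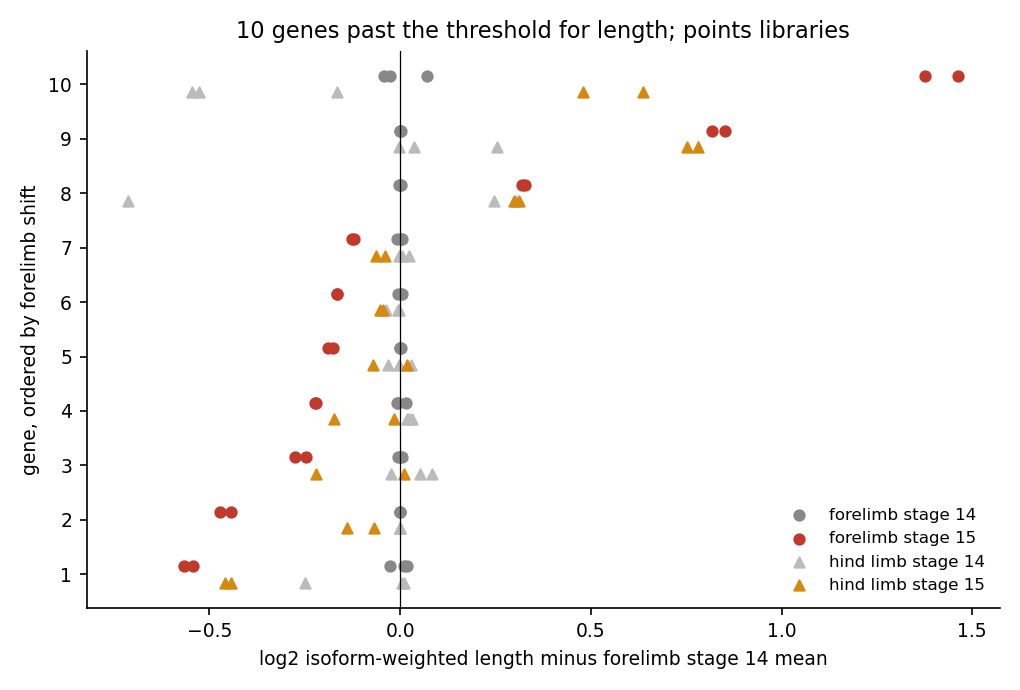
Isoform-weighted length of the 10 genes past the threshold, by library, as the log2 difference from the stage 14 forelimb mean (horizontal axis; genes in order of their forelimb shift on the vertical axis; circles forelimb, triangles hind limb, stage 15 in colour and stage 14 in grey). In the forelimb the stages are apart in all 10 genes, and in the hind limb in 7.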

How the data were processed

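Bat limb RNASeq libraries (16) were analysed, 5 of them in the forelimb comparison of stage 15 against 14. The authors trimmed reads at quality 20, pooled all bat libraries into a Trinity assembly, kept sequences with a SwissProt match and counted reads with RSEM, whose version is not given in the sources used here. Single reads that fit several isoforms or related genes were therefore divided by estimate. The values deposited are expected counts, which RSEM estimates for each gene without normalization, and they were rounded to whole numbers. The deposited length of a gene is weighted by isoform abundance. The authors' TPM and FPKM were not used.

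Groups came from the labels, whose protocol gives stage 14 for ES and stage 15 for LS. The comparison was fitted with edgeR 4.0.16 (R 4.3.3; TMM, robust quasi-likelihood test, Benjamini-Hochberg adjustment over all genes tested), with only the groups compared in a fit. Standard errors are the absolute log2 fold change over the square root of the test statistic F. CPM values use TMM-scaled library sizes. Lengths were tested with limma 3.58.1 (trend and robust), where 228 genes had the same length in all 5 libraries. The count minimum was 10 in at least 2 libraries, and in 3 for stage 14 against 13. DESeq2 1.42.0 was an alternative. In Python 3.11.15, pandas 2.3.3 made the summaries.

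Replicate libraries of a stage differed by a chi-square of 17.9 to 24.8 per degree of freedom, so none was a copy. The fits were also run on simulated data with a set spread, where changes in count were placed only in genes that did not have few counts. That run shows only whether planted changes are found, and it does not test the calls above. The comparison, the lists and the tests were chosen with earlier results of these data known. The named genes are, among called genes whose stages do not overlap, the largest rise and fall, overall and with at least 100 counts in every library.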

Additional observations from a re-analysis of the deposited data

How the results depend on the processing

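Of 119 alternative values, 89 kept their direction and side of the threshold, stayed within 1.5 times the main count or, for shares, within 5 percentage points. For counts of called genes these were 10 of 14 in the forelimb, 9 of 13 in the hind limb and 2 of 10 for stage 14 against 13. They were 10 of 14 for the interaction and 2 of 9 for length. The share with the same direction in the hind limb held in 12 of 12. The 4 named genes held in 10 of 10, 6 of 9, 14 of 14 and 14 of 14. Fits that did not test a gene are not counted for it. The first 2, comp38070_c0 and comp83297_c0, met the count minimum only through the stage where they are high. Their shares, which are part of the 89 of 119, are therefore no support for their calls. The forelimb count of 1922 was between 1719 and 2636 with RLE factors, total-count scaling, DESeq2, other filters, matched depth, genes of 1000 bases or more or the replicate block, and 1275 with all 16 libraries in 1 fit, 1209 of them shared with the 1922. Leaving out 1 library gave 502 to 1550. The share of rises among calls was 66.1%. It was 58.1% with DESeq2, 58.9% with the replicate block, 72.0% with total-count scaling, 73.3% with all 16 libraries and 83.9% without stage 15 replicate 2. The share of forelimb calls with the same direction in the hind limb, 96.9%, stayed between 95.7% and 99.4%. The log2 fold changes of comp122102_c0 and comp126894_c0 kept their sign in all 14 alternative fits. With 2 or more libraries in each stage they also kept their call. The rise of comp38070_c0 kept its sign in the 10 fits that tested it. It was not tested without either stage 15 library or with 10 counts required in all libraries, so its call remains a description.

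The hind limb count of 761 was 1367 with DESeq2 and 234 to 880 with a library left out. The count of stage 14 against 13, 443, was 1239 with DESeq2, 851 with the replicate block and 75 to 676 with a library left out. The interaction, 0 genes in edgeR, gave 54 with DESeq2, 2 with the replicate block within each stage and 0 to 26 with a library left out. The length test, 10 genes, gave 2 with a minimum of 50 counts, 0 with the replicate block and 0 to 41 with a library left out. The cause of these moves was not tested. A fit that leaves a library out differs both in how many and in which libraries it holds.

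The replicate number was not taken as pairing. With 2 shared numbers, the deviations of same-numbered forelimb libraries correlated at 0.0965 and 0.0837 across genes, and at 0.105 with stage 14 replicate 3 left out. These values are not separate checks, since the deviations of the 2 stage 15 libraries from their mean mirror each other. They do not settle whether the libraries are paired. With the number as a block 2131 forelimb genes passed, and the fall of comp83297_c0 was not called. With 3 counts as the limit, a gene under 0.0919 to 0.185 CPM cannot be seen in a forelimb library.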
